A study of Homo sapiens with 6 samples.

Results

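Short retained introns are the introns of fewer than 500 nt that stay in a measurable share of the spliced messages of their genes. They were chosen by measured values: an intron was a member when its coverage score was LOW or better and its reads came to at least 10 in all 6 libraries, its length was under 500 nt, and its mean percent over the 3 Control libraries lay between 5 and 95. That gave 1329 introns in 1010 genes, out of 3543 introns of any length under the same filters and 192965 introns listed in the deposited table. The remaining introns under those filters were 1081 of 500 to 2000 nt and 1133 over 2000 nt. A further 21376 short introns had the coverage but a Control mean under 5%, and 46 had a Control mean over 95%. The introns nearest to each limit were SNHG6 at 499 nt and TNIP2 at 500 nt, ZNF771 at a Control mean of 5.01% and RNF10 at 4.99%, and CELSR2 at 94.8% and CTBP1-AS2 at 95.8%.

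All libraries came from SKNBE2, a human neuroblastoma line in which MYCN is amplified, kept either without drug (Control, 3 libraries) or for 4 days with DFMO at 250 µM (DFMO, 3 libraries). DFMO, or difluoromethylornithine, inhibits ornithine decarboxylase, the enzyme that opens polyamine synthesis. This is 1 line with 1 dose and 1 time. The sources used here do not say whether the libraries of a group came from separate cultures, so their spread may be technical only. The p-values rest on that spread after each intron's variance was drawn toward that of the other tested introns. Of 16 noradrenergic neuroblast markers 15 had exon events, and their summed level, in exon event reads per 1000000 such reads, was 1253 to 1280 in Control and 1304 to 1321 in DFMO. Immune markers summed to 0.288 to 0.322 and 0.415 to 0.527, nearly all of it CD68, with LYZ at 0 in every library. Epithelial markers summed to 0.819 to 1.15 and 0.63 to 0.966, with KRT8 and KRT18 at 0. Mesenchymal markers summed to 20.7 to 20.8 and 21.7 to 23.1, with RUNX2 at 0, and fibroblast markers to 63.7 to 68.7 and 67.5 to 70.2, most of it THY1. The part of these markers in the results was not tested.

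Most human introns are long, and the splicing machinery recognises the exons between them. Very short introns, which tend to be rich in G and C, are thought to be recognised across the intron itself. An intron left in a polyadenylated message can bring in a stop codon that exposes the message to nonsense-mediated decay, or it can hold the message in the nucleus as a detained intron. Polyamines bind RNA, and spermidine is also the source of hypusine on the translation factor eIF5A. The deposited measure here is the percent of retention, which compares reads that cross from exon into intron with reads that join the exons, and a difference between groups is given in percentage points.

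The 1329 introns were 67 to 499 nt long, with a median of 201 nt and quartiles of 107 and 319 nt. Their Control retention had a median of 9.93%, with quartiles of 6.80% and 18.2%. All 1329 are introns of GENCODE v29 transcripts on GRCh38. In that annotation 1115 interrupt coding sequence, 121 lie in a 5′ UTR, 32 in a 3′ UTR and 52 in noncoding transcripts. For 779 of them the annotation holds another transcript whose exon spans the whole intron, so that their sequence could be read from the GENCODE v29 transcript sequences. Of these 779, 763 began with GT and ended with AG, 8 ran from GC to AG and 6 from AT to AC. Their GC content had a median of 61.5%, with quartiles of 55.2% and 67.9%. The reading frame that enters the intron was known for 667, of which 497 held an in-frame stop codon, 1 (ENKD1) formed one across its 5′ end and 169 held none, and in 50 of the 169 the length was also a multiple of 3.

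The sequences below are the coding introns of at most 300 nt among the 12 largest falls described later, followed by the very short MFSD12 intron and the MAP3K12 intron, which had the highest Control retention among the falls. They are printed on the transcript's strand, 5′ to 3′, from GENCODE v29 transcripts on GRCh38. Capitals mark the first and last 2 bases of the intron and, where there is one, the first stop codon in the frame that enters from the upstream exon.
CAMKV: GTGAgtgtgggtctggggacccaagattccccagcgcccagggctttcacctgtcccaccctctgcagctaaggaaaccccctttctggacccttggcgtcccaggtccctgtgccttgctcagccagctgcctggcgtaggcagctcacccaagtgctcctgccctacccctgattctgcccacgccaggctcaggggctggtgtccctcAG
FAM173A: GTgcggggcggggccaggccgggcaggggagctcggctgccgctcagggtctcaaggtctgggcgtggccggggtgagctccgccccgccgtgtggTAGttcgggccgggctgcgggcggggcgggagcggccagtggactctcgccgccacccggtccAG
PSMC3IP: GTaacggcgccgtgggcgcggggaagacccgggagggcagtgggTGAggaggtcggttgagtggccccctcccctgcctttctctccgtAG
FBXL12: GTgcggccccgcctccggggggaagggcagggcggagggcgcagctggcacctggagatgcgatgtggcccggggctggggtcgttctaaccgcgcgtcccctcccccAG
CHKB: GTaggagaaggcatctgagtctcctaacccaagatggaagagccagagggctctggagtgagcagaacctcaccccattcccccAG
USP21: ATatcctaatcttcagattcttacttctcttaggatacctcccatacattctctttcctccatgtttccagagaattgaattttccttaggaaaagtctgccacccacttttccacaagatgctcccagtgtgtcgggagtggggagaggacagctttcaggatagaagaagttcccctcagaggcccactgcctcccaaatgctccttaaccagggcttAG
MFSD12: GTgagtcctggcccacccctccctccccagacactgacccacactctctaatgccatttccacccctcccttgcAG
MAP3K12: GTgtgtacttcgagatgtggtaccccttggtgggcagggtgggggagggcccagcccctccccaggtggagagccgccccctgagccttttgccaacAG

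The CAMKV intron (chr3:49861578-49861790, minus strand, 213 nt) would end translation at once, since the TGA overlaps its GT and starts at base 2 of the intron. In PSMC3IP (chr17:42577562-42577652, minus strand, 91 nt) the TGA starts at base 45, and in FAM173A (chr16:721437-721597, plus strand, 161 nt) the TAG starts at base 97. No in-frame stop was found in FBXL12 (chr19:9818618-9818727, minus strand, 110 nt, 76.4% GC), CHKB (chr22:50580272-50580357, minus strand, 86 nt) or MFSD12 (chr19:3544733-3544808, minus strand, 76 nt), whose lengths are not multiples of 3 and so shift the frame. The MAP3K12 intron (chr12:53487156-53487254, minus strand, 99 nt) and the USP21 intron (chr1:161164613-161164834, plus strand, 222 nt) had no stop and a length that is a multiple of 3, so retention keeps the frame. The annotated USP21 intron begins with AT and ends with AG, which is neither of the usual pairs, and its GC content of 46.8% is the lowest of those printed.

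With DFMO, retention of short introns was called lower far more often than higher. Of the 1329 members, 1173 in 916 genes also had a 6-library mean of 5 to 95% and entered the test, and 44 of the 1173 were called lower and 5 higher. A call needed an adjusted p under 0.05 from limma, adjusted over all 3683 tested introns of any length, and a difference of at least 10 points. Over those 3683 introns 2.06% were called lower and 1.74% higher (76 and 64 introns), against 3.75% and 0.426% of the tested members. Of the 156 members left out of the test, 155 had a 6-library mean under 5% and 1 over 95%. At the adjusted p alone, 84 members were lower and 15 higher, beside 154 and 162 introns of any length. Without Control replicate 1 these members were 45 and 7, and testing introns of any mean level they were 40 and 2. With balanced reads at both ends they were 39 and 6, and without DFMO replicate 1 or DFMO replicate 2 the higher ones were 7. Within limma these calls needed the variance trend: without it limma called 0 members in either direction, while 141 were lower and 29 higher at an unadjusted p under 0.05. A quasi-binomial model, which starts from the variance of counting and has no such trend, called 48 members lower and 6 higher.

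The Control mean that chose the members also enters the difference, so members include more introns whose Control libraries happened to read high. A count that treats the groups alike is one over all 1272 short introns whose 6-library mean lay between 5 and 95%, members or not, and there 45 were called lower and 5 higher. The additional fall was CTBP1-AS2, a noncoding antisense transcript, at 95.8% in Control and 83.7% in DFMO. The median difference over these 1272 introns was -0.91 points, with quartiles of -3.71 and 1.95, and 41.3% of them were higher with DFMO. Over the 1173 tested members the median was -1.39 points, and over all 3683 introns it was 0.33.

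The introns of other lengths from the same fit did not show this balance. Of 1156 introns of 500 to 2000 nt, 15 were called lower and 15 higher, with a median difference of 0.48 points. Of 1255 introns over 2000 nt, 16 were called lower and 44 higher, with a median of 1.71 points. Within the short introns the falls were spread over the whole range of lengths: 9 of 264 under 100 nt were called lower, 13 of 350 in the bin that starts at 100 nt, 11 of 285 in that at 200 nt, 6 of 212 in that at 300 nt and 6 of 161 in the longest bin, which ends at 499 nt. The medians of those bins were -1.26, -1.11, -0.87, -1.31 and 0.15 points, so the typical intron of the longest bin did not read lower. The difference between the length classes was not itself tested.

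**Figure D1:**
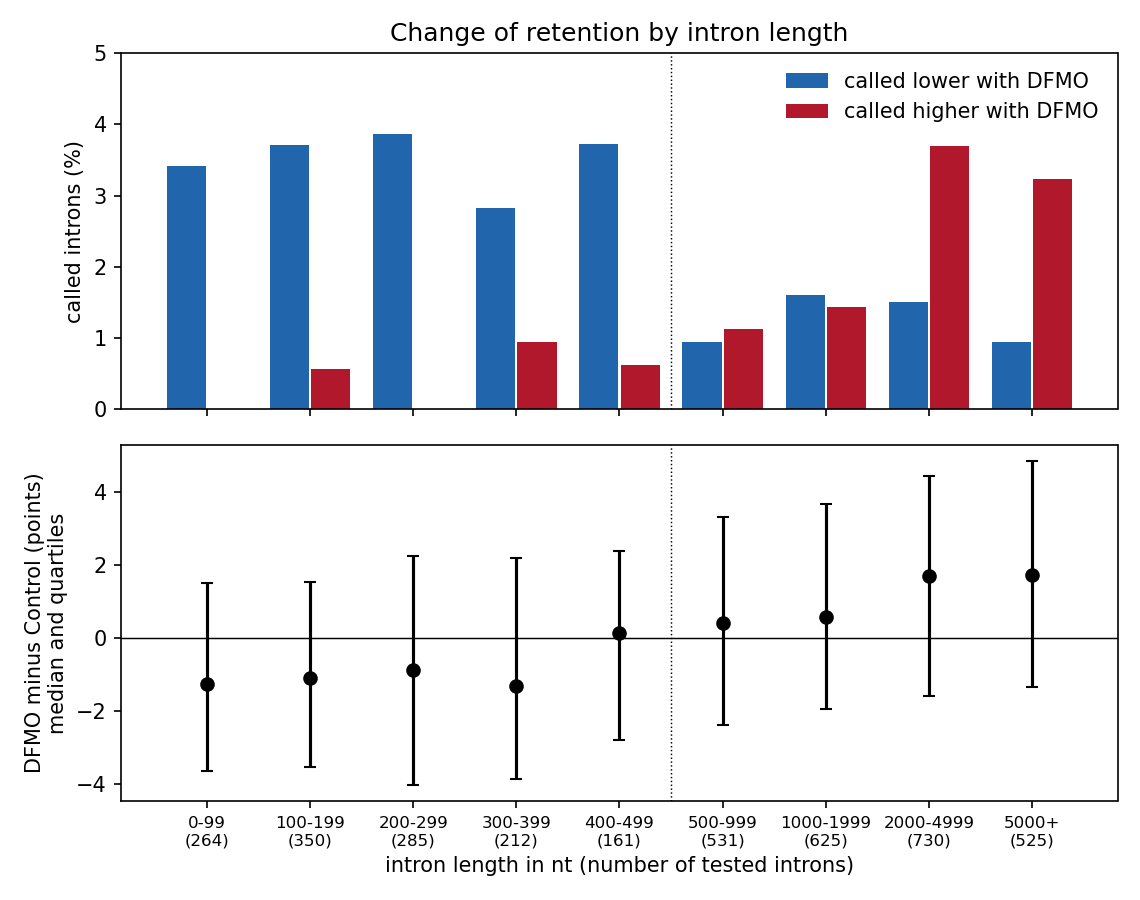
Upper panel, percent of tested introns called lower (blue) or higher (red) with DFMO in 9 bins of intron length. Lower panel, median difference in percentage points (points) with the quartiles (bars), and the dotted line marks 500 nt. Under 500 nt the blue bars stand at 2.83 to 3.86% and the red at 0 to 0.943%, and from 2000 nt on the red bars stand at 3.24 to 3.70%.

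The same order was present in the mean retention per library. Over the 1272 short introns the mean was 16.5%, 16.3% and 17.3% in Control replicates 1 to 3 and 15.6%, 15.8% and 15.0% in DFMO replicates 1 to 3 (16.7% ± 0.527 and 15.5% ± 0.449, SD, n = 3). All 3 DFMO libraries lay below all 3 Control libraries, and DFMO replicate 3 was lowest. Over the 1255 introns longer than 2000 nt the means were 13.6%, 13.3% and 14.0% in Control and 15.5%, 15.5% and 14.7% in DFMO, with the DFMO libraries above. For 500 to 2000 nt the groups overlapped, at 14.9% ± 0.361 and 15.4% ± 0.639 (SD, n = 3). DFMO replicate 3 was the lowest DFMO library in all 3 classes.

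**Figure D2:**
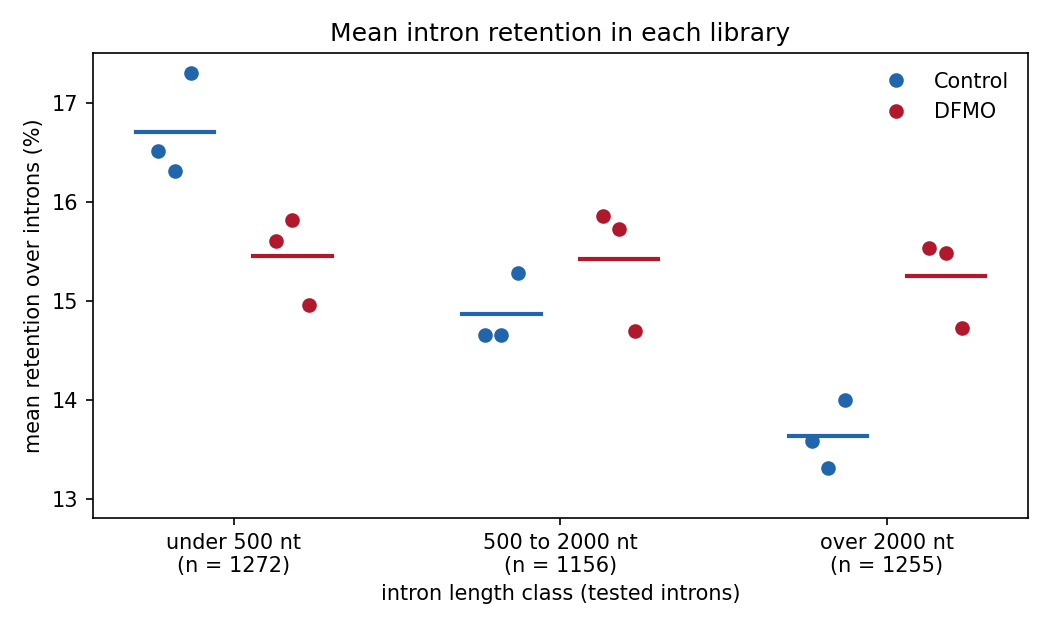
Mean retention in percent over the tested introns of each length class, 1 point per library (Control blue, DFMO red), lines at the group means, with an axis that does not start at 0. For introns under 500 nt the Control libraries sit at 16.3 to 17.3% and the DFMO libraries at 15.0 to 15.8%, and over 2000 nt the order of the groups is reversed.

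Counted intron by intron, all 3 DFMO libraries lay below all 3 Control libraries in 215 of the 1272 short introns and above them in 90. In introns of any length the shares were 11.5% below and 13.1% above, and in introns over 2000 nt the counts were 87 below and 234 above. Among tested members the counts were 213 below and 61 above, which the choice on the Control mean again favours.

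Most calls lay where Control retention was high. Of 517 tested members with 5 to 10% retention in Control none was called lower by limma and 1 was called higher, since an intron at that level cannot fall by 10 points. Of 360 members at 10 to 20%, 4 were called lower and 2 higher. At 20 to 40%, 23 of 197 were called lower and none higher, and at 40 to 95%, 17 of 99 lower and 2 higher. Binned instead by the 6-library mean, which treats the groups alike, 18 of 178 short introns at 20 to 40% and 13 of 94 at 40 to 95% were called lower.

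**Figure D3:**
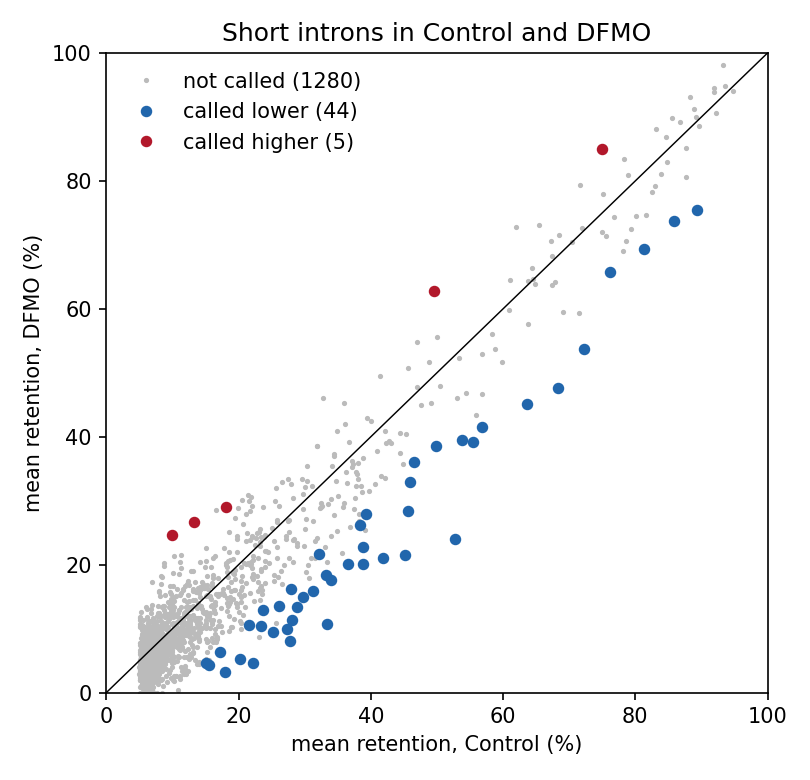
Mean retention of the 1329 short introns in Control (x axis, percent) and DFMO (y axis, percent), with introns called lower in blue, called higher in red and all others, tested or not, in grey. The 44 blue points lie below the line of equality from 15.0% to 89.4% Control retention, and the 5 red points lie above it.

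The falls were frequent among first introns, as numbered in 1 annotated transcript per intron. Among tested members, 18 of 193 introns at the 5′ end of transcripts with several introns were called lower and none higher, with a median difference of -2.55 points. Of 733 internal introns 20 were called lower and 1 higher (median -0.99), and of 224 introns at the 3′ end 5 were lower and 3 higher. By location, 9 of 114 introns of a 5′ UTR, 30 of 970 coding introns, 1 of 30 introns of a 3′ UTR, 1 of 7 in a 3′ UTR of another transcript type and 3 of 51 introns of noncoding transcripts were called lower. The median Control retention of the 5′-most introns was 18.2% and that of internal introns 9.92%, and the part of this difference in the counts was not tested.

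Base composition and frame could be read only for members inside an annotated exon of another transcript. Of 117 members under 50% GC 4 were called lower and the median difference was 0.19 points. Of 185 at 50 to 60% GC 8 were lower, of 283 at 60 to 70% GC 10, and of 125 over 70% GC 9, with medians of -1.71, -2.22 and -1.75 points. By frame, 12 of 456 coding introns with an in-frame stop were called lower, 8 of 101 without a stop whose length is not a multiple of 3, and 3 of 46 that keep the frame, which were USP21, MAP3K12 and BRPF1. The introns without a stop were also shorter, at a median of 92 and 99 nt against 197 nt.

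Among the 12 largest falls, 5 were 5′ UTR introns and the first intron of the annotated transcript used to place them, which need not start where the gene starts. In HDAC9, a class IIa histone deacetylase, the 407 nt intron (chr7:18495855-18496261) was retained at 50.4%, 57.5% and 50.3% in Control and at 26.6%, 30.5% and 15.0% in DFMO. It fell by 28.7 points, the most of any short intron (52.8% ± 4.13 to 24.0% ± 8.08, SD, n = 3, limma log2 odds -1.83, SE 0.349, adjusted p = 1.7e-05). The groups were far apart, and DFMO replicate 3 was lowest. In DUS4L, of the family that makes dihydrouridine in tRNA, the 378 nt intron (chr7:107564210-107564587) read 41.5%, 51.4% and 42.5% in Control and 17.4%, 28.2% and 18.9% in DFMO (log2 odds -1.57, SE 0.356, adjusted p = 5.9e-04). Replicate 2 was the highest library of both groups, and even so the groups did not overlap.

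PRR14 encodes a protein that ties heterochromatin to the nuclear lamina. Its 468 nt intron (chr16:30651128-30651595) was retained at 65.6%, 64.8% and 74.3% in Control and at 53.7%, 50.4% and 38.8% in DFMO, a fall of 1.24 on the log2 odds scale to 47.6% ± 7.80 (SD, n = 3, limma adjusted p = 3.9e-04). In KIF4A, a chromokinesin of mitosis, the 287 nt intron (chrX:70290151-70290437) read 26.7%, 21.2% and 35.6% in Control and 4.76%, 8.82% and 10.6% in DFMO (adjusted p = 0.0113). These rest on 26 to 64 reads per library, and the call was lost without Control replicate 1, Control replicate 3 or DFMO replicate 1. In RECQL5, a RecQ helicase of DNA repair, the 472 nt intron (chr17:75666572-75667043) read 82.1%, 66.7% and 67.8% in Control and 49.5%, 59.0% and 52.6% in DFMO (adjusted p = 0.0138), a call lost without Control replicate 1, DFMO replicate 1 or DFMO replicate 3.

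The coding introns whose sequences are printed above gave the next falls. CAMKV encodes a kinase-like protein of synaptic vesicles, and its intron 4 of 10 was retained at 43.2%, 37.4% and 44.9% in Control and at 15.2%, 19.4% and 28.6% in DFMO. It fell by 20.8 points (log2 odds -1.45, SE 0.311, limma adjusted p = 2.5e-04), with DFMO replicate 3 nearest to Control. The FAM173A intron, in the gene of a mitochondrial lysine methyltransferase, read 37.8%, 41.1% and 37.8% in Control and 14.9%, 17.8% and 27.6% in DFMO (adjusted p = 0.0189). Leaving out Control replicate 1 or 2 or DFMO replicate 1 or 2 ended that call, and its depth was 42 to 58 reads.

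PSMC3IP, also called HOP2, is a partner of the recombinases in homologous recombination. Its intron 1 was retained in most messages of the Control cells, at 65.6%, 62.5% and 62.6%, and at 47.6%, 36.6% and 50.9% in DFMO (adjusted p = 0.00175). The groups lay more than 10 points apart, with DFMO replicate 2 lowest, and without that library the call was lost. FBXL12, an F-box protein of ubiquitin ligases, had the largest proportional fall of these coding introns. Its GC-rich intron read 22.5%, 19.4% and 24.5% in Control and 3.73%, 3.59% and 6.59% in DFMO (log2 odds -2.42, SE 0.526, adjusted p = 3.1e-04).

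CHKB makes phosphocholine, and its intron 6 of 10 was retained at 26.4%, 24.9% and 30.6% in Control and at 13.8%, 10.5% and 5.75% in DFMO (log2 odds -1.78, SE 0.371, limma adjusted p = 1.3e-04). USP21, a deubiquitinase, gave the tightest groups of the 12, with 44.7%, 44.6% and 47.5% in Control and 29.3%, 27.6% and 28.2% in DFMO (adjusted p = 0.0024). The last of the 12 is noncoding. MINCR, a long noncoding RNA named for its induction by MYC, has a 484 nt intron (chr8:143280998-143281481) that read 43.3%, 28.3% and 28.4% in Control and 12.2%, 10.3% and 9.52% in DFMO (adjusted p = 2.6e-04), with Control replicate 1 standing apart on the high side.

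**Figure D4:**
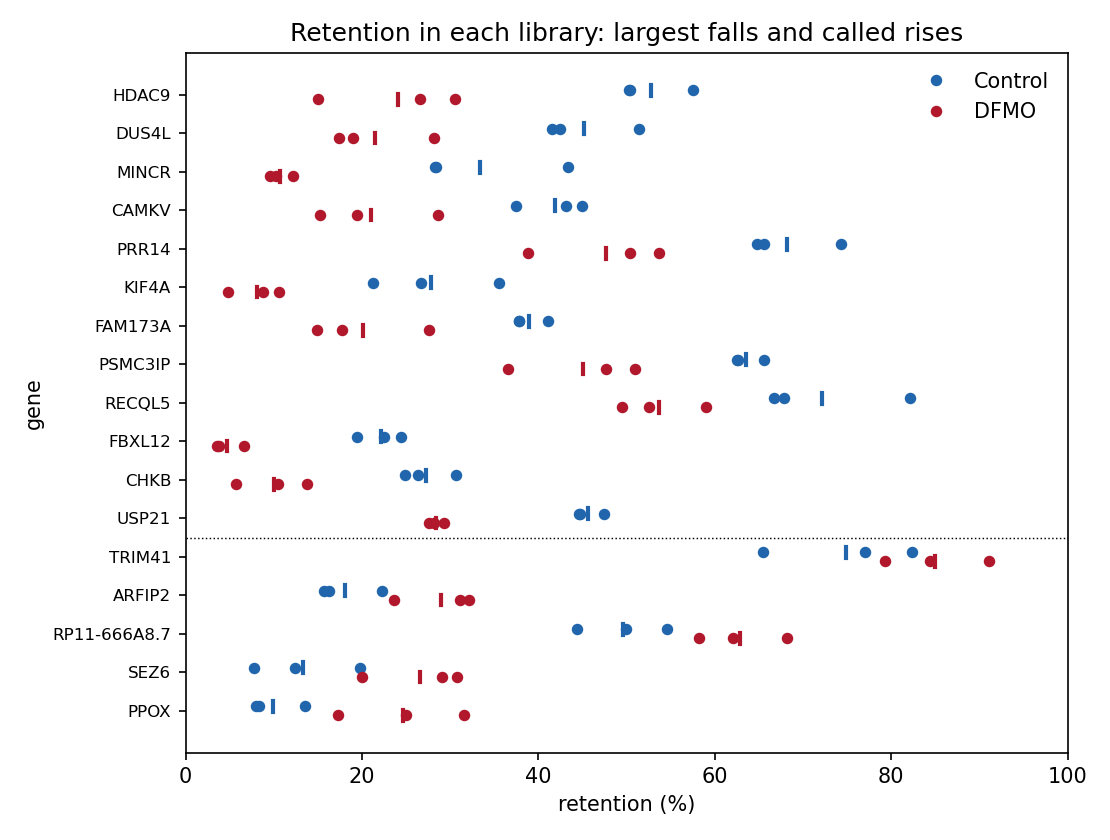
Retention in percent (x axis) in each library for the 12 largest falls (above the dotted line) and the 5 called rises (below it), with 1 point per library, Control in blue, DFMO in red and bars at the group means. In all 12 falls the 3 DFMO points lie left of the 3 Control points, and in TRIM41 the groups overlap.

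The other 32 introns called lower fell by 10.3 to 16.8 points, and those described here were picked after their values were seen. The smallest adjusted p of all members called was that of MCRIP1, a partner of the corepressor CtBP, whose 301 nt 3′ UTR intron (chr17:81822908-81823208) was covered by 1120 to 1596 reads. It was retained at 86.5%, 88.1% and 82.9% in Control and at 73.5%, 76.4% and 71.5% in DFMO (log2 odds -1.12, SE 0.116, limma adjusted p = 9.3e-19). The TMEM132A intron (chr11:60935444-60935863, 420 nt), in a gene of a membrane protein, read 26.3%, 28.5% and 31.8% against 13.2%, 14.0% and 12.9% (adjusted p = 1.4e-10). REPIN1, a zinc finger protein, had a 343 nt 5′ UTR intron (chr7:150370885-150371227) at 58.7%, 56.1% and 55.5% against 40.8%, 40.8% and 43.1% (adjusted p = 2.0e-06). These 3 had at least 296 reads in each library and groups that did not overlap.

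The 76 nt MFSD12 intron, in the gene of a lysosomal cysteine transporter, fell by 11.2 points from 15.6% ± 2.36 to 4.37% ± 1.497 (SD, n = 3, adjusted p = 9.2e-05). The frame-keeping MAP3K12 intron, in the gene of the neuronal kinase DLK, read 96.5%, 83.0% and 88.7% in Control and 69.9%, 77.2% and 79.4% in DFMO (adjusted p = 0.0213), with 43 to 70 reads. BRPF1, a scaffold of a histone acetyltransferase complex, fell by 15.4 points to 15.8% ± 5.51 (SD, n = 3, adjusted p = 0.0138). Calls of MAP3K12 and BRPF1 ended without Control replicate 1 or DFMO replicate 1, and that of MAP3K12 also without DFMO replicate 2. CDCA5, or sororin, which protects sister chromatid cohesion, fell by 14.8 points from 29.7% ± 4.85 to 14.9% ± 1.23 (SD, n = 3, adjusted p = 2.8e-04).

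Several hosts of falling introns are enzymes of lipid and mitochondrial metabolism. The intron of CPT1C, the neuronal carnitine palmitoyltransferase, fell by 15.0 points (adjusted p = 0.00964), that of ELOVL6, a fatty acid elongase, by 11.9 points (adjusted p = 0.018), that of ACADVL, an acyl-CoA dehydrogenase, by 10.8 points (adjusted p = 0.019) and that of COQ8B, of coenzyme Q synthesis, by 16.4 points (limma adjusted p = 0.00948). Others encode regulators of ubiquitin and signalling, such as TRIM65 (by 16.8 points, adjusted p = 3.5e-04), FBXL15 (by 12.1 points, adjusted p = 0.00636) and SORBS3, the adaptor vinexin (by 15.8 points, adjusted p = 7.1e-04). These genes were grouped after their values were seen, and no theme was tested. Calls ended without Control replicate 2 for CPT1C, without Control replicate 1 for COQ8B and FBXL15, without DFMO replicate 3 for COQ8B, and without 4 of the 6 libraries in turn for both ELOVL6 and ACADVL.

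Some calls were at the border. RBAK, a zinc finger repressor, was the only fall whose groups overlapped, at 61.1%, 55.1% and 45.3% in Control and 41.2%, 29.8% and 47.6% in DFMO (adjusted p = 0.0147). DDX41, a DEAD-box helicase, lost its call when any library was left out, although its groups read 23.4% ± 1.36 and 10.3% ± 1.40 (SD, n = 3, limma adjusted p = 0.0497). STX10, a SNARE of the trans-Golgi network, had an adjusted p of 0.0495. Of the 44 falls, 16 stayed called in every alternative that tested them but the fit without a variance trend, among them HDAC9, DUS4L, MINCR, CAMKV, PRR14, FBXL12, CHKB and USP21. HDAC9 and DUS4L did not have balanced reads at both ends in every library, so the alternative with balanced reads did not test them. The same holds for KIF4A, FAM173A and PSMC3IP. Reads were balanced in 24 of the 44 falls, beside 697 of the 1173 tested members. Without Control replicate 1 the members called were 29 lower and 2 higher. With no filter on the mean percent, 24 of the 49 called members stayed called. Among those lost there were RECQL5, FAM173A, MAP3K12, BRPF1, COQ8B, FBXL15, ELOVL6 and ACADVL.

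The 5 rises were fewer and less stable. PPOX, protoporphyrinogen oxidase of heme synthesis, rose by 14.7 points, from 7.94%, 8.33% and 13.5% to 25.0%, 31.5% and 17.3% (log2 odds 1.48, SE 0.469, limma adjusted p = 0.0254). SEZ6, a neuronal membrane protein, read 7.80%, 12.4% and 19.8% in Control and 20%, 29.03% and 30.8% in DFMO (adjusted p = 0.0147), so that the groups all but touched. The rise with the most reads, 995 to 1908 per library, was RP11-666A8.7, a noncoding transcript with a single intron (chr17:76550234-76550539, 306 nt), at 54.6%, 49.9% and 44.3% against 62.1%, 58.2% and 68.2% (adjusted p = 5.8e-09). That call was lost on the percent scale, in the quasi-binomial model and with the replicate block.

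ARFIP2, or arfaptin, which binds Arf and Rac, read 15.7%, 22.3% and 16.2% against 32.2%, 31.1% and 23.7% (limma adjusted p = 0.0231). TRIM41, a ubiquitin ligase named although its groups overlap, read 77.0%, 65.4% and 82.3% against 84.5%, 79.3% and 91.1% (adjusted p = 0.0269). Calls of PPOX, SEZ6, ARFIP2 and TRIM41 all ended without Control replicate 1.

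Reads inside the intron give another look at the same libraries, because the percent rests on reads at the exon-intron and exon-exon junctions alone. For the called introns the body reads, per 100 mappable positions, were divided by the reads that join the exons, so both measures share those joining reads. The ratio is therefore not independent of the call, and an intron called lower tends to a lower ratio. Of the 44 introns called lower, 43 had a lower mean ratio in DFMO, and in 38 the groups did not overlap. The median ratio of DFMO to Control was 0.46 over the 43 introns with a defined ratio, with quartiles of 0.409 and 0.553. It was 0.876 over 1144 tested members and 1.09 over 3405 tested introns of any length. Members were chosen on the Control mean, which favours a lower ratio among them. In HDAC9 the ratio went from 0.174 ± 0.0668 to 0.0874 ± 0.0198, in FBXL12 from 0.347 ± 0.0434 to 0.0406 ± 0.0198 and in MFSD12 from 0.972 ± 0.184 to 0.216 ± 0.0390 (SD, n = 3). Body reads alone, per 100 positions and not scaled for depth, did not fall in every intron called lower. They went from 6.03 to 3.07 in HDAC9, but from 5.74 to 6.71 in MINCR and from 6.80 to 7.75 in RECQL5, examples picked after their values were seen.

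Body reads were nearly absent in RBAK, with a ratio to the joining reads of 0.0037 in Control and 0 in DFMO. The same holds for APTX, a DNA repair enzyme, with ratios of 0.0045 and 0.0028. Their junction percents were nevertheless 53.8% and 46.5% in Control. In DDX41 there were too few body reads to compare: 1 read in each of 2 DFMO libraries and none in the others, over 34 positions. In all, 9 of the 1173 tested members had no body reads in any library. Among the rises all 5 had a higher mean ratio in DFMO, with groups apart in 2, and that of RP11-666A8.7 went from 1.43 ± 0.416 to 4.90 ± 1.67 (SD, n = 3). For introns under 200 nt, the mappable positions were the length less 49 in 99.2% of members, so the shortest introns offer few positions.

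**Figure D5:**
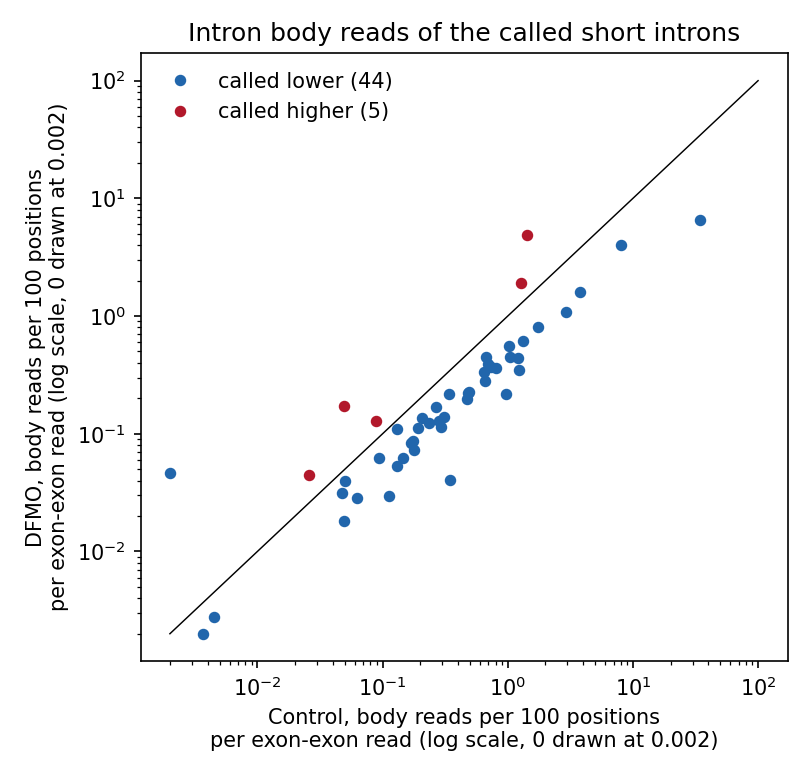
Intron body reads per 100 mappable positions per exon-exon read, mean of 3 libraries, in Control (x axis) and DFMO (y axis), both on log scales, for the 44 introns called lower (blue) and 5 called higher (red), with values of 0 drawn at 0.002. All blue points but that of DDX41, at the left edge, lie below the line of equality, and the 5 red points lie above it.

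Host genes of falling introns were not called for their own level with the main settings of the proxy. Gene counts were not analysed here, so a proxy was taken from the reads on each gene's exon events. Of 935 host genes of members with a proxy, 17 were called higher and 2 lower (limma adjusted p under 0.05 and at least 1.5-fold), beside 0.65% higher and 0.433% lower over all 9232 genes. Of the 43 hosts of introns called lower that had a proxy none was called by limma, with differences of -0.57 to 0.55 on the log2 scale and a median of 0.09. By adjusted p alone 20 of these 43 were higher and 11 lower, beside 313 and 173 of the 935 hosts of members. HDAC9 had the lowest of these differences (-0.57, adjusted p = 1.3e-04) and RP11-561B11.6 the highest (0.55, adjusted p = 3.7e-04), both just short of 1.5-fold. With a pseudocount of 0.1, HDAC9 was called lower and PIGQ, RBAK and RP11-561B11.6 higher. HDAC9 was also called lower without Control replicate 2, DFMO replicate 1 or DFMO replicate 2, and RP11-561B11.6 higher without DFMO replicate 1.

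The 44 genes held 41 other tested introns, in 26 of the genes, of which 30 were short, and 1 was called lower and none higher by limma, beside 2.06% and 1.74% over introns of any length. Their median difference was -1.70 points, with 29 lower and 12 higher. In CHKB, where intron 6 fell, introns 1, 2 and 3 read 35.7% ± 12.5, 18.3% ± 3.16 and 17.2% ± 1.39 in Control and 29.0% ± 4.66, 12.7% ± 4.33 and 15.3% ± 5.86 in DFMO (SD, n = 3), with overlapping groups and no call. KLHL17, a kelch-family protein, had the most short introns tested in a gene, 8, of 75 to 432 nt. None was called, with differences of -4.36 to 4.37 points. In the snoRNA host gene SNHG1, 5 introns differed by -1.56 to 1.82 points, and in CHTF18, which helps load the replication clamp, 4 differed by 0.19 to 2.38 points, again without a call.

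Gene groups relevant to RNA processing held few short introns, and their counts are to be read beside all tested members, of which 36.5% read higher with a median of -1.39 points. Of 6 tested in SR proteins and their regulators none was called, and 5 of 6 read lower, with a median of -5.72 points. SCAF11, an SR-related factor, had the smallest p there: 13.8%, 12.5% and 10.9% in Control and 0.78%, 2.16% and 7.41% in DFMO (limma adjusted p = 0.00196), short of the 10-point limit. None of 6 introns of hnRNPs and splicing regulators was called (median -0.01). HNRNPL, whose 111 nt intron had 1509 to 2259 reads, went from 15.5% ± 1.42 to 11.98% ± 0.803 (SD, n = 3, adjusted p = 0.00394). None of 10 introns of core spliceosome genes was called (median 1.57).

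None of 10 introns of RNA decay, export and 3′ end processing genes was called (median 0.51), where the CPSF1 intron of 74 nt read 15.5% ± 5.36 and 5.03% ± 2.66 (SD, n = 3, limma adjusted p = 0.0898). None of 9 introns of genes published as having detained introns was called (median 0.83), with THOC1, of the mRNA export complex, at 8.03% ± 4.70 and 15.7% ± 4.14 (SD, n = 3, adjusted p = 0.178). Polyamine metabolism had 1 tested intron, in MAT2A, which makes S-adenosylmethionine, at 5.03% ± 1.86 and 7.72% ± 1.32 (SD, n = 3, adjusted p = 0.165).

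Ribosomal protein and ribosome biogenesis genes held 37 tested short introns, the most of any list. None was called, and 25 read lower and 12 higher, beside 36.5% higher among all tested members. The median was -1.90 points. RPS21 was read deeply. With 9898 to 14394 reads its 92 nt intron (chr20:62388365-62388456) read 6.35%, 6.68% and 6.28% in Control and 4.43%, 4.35% and 4.45% in DFMO (log2 odds -0.58, SE 0.0699, limma adjusted p = 1.2e-13). The groups are far apart for their spread, and retention fell by 2.03 points. None of 9 introns of mitochondrial ribosome and respiration genes was called (median -2.50), and NDUFB10, of respiratory complex I, went from 14.1% ± 0.927 to 11.6% ± 0.541 (SD, n = 3, adjusted p = 0.0185). Of 13 introns of translation factors and tRNA enzymes 1 was called lower, in DUS4L (median 0.34).

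Of 32 introns of chromatin genes 2 were called lower, in HDAC9 and BRPF1 (median -1.53). Of 30 introns of cell cycle genes 2 were called lower, in KIF4A and CDCA5 (median -0.77), and of 30 introns of DNA repair and p53 genes 1, in RECQL5 (median -1.90). Synapse and neurite genes had 18, with CAMKV and STX10 called lower (median -1.96), and metabolic genes 13, with ELOVL6 called lower (median -3.49). None of these lists had a call in the other direction. Of 4 introns of noradrenergic identity genes none was called (median -0.05). SLC18A1, the vesicular monoamine transporter VMAT1, passed the adjusted p without reaching 10 points, at 9.31%, 7.95% and 7.20% in Control and 3.05%, 4.43% and 3.25% in DFMO (limma adjusted p = 6.5e-04). From that Control level a fall of 10 points was not possible. A list's share of calls is to be read beside the 3.75% of all tested members.

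The 4 introns retained most in Control gave no call. CELSR2, an adhesion receptor of planar polarity, was retained at 94.8% ± 1.17 in Control and 94.1% ± 2.29 in DFMO (SD, n = 3, limma adjusted p = 0.91). The noncoding RP11-282O18.3 read 93.5% ± 1.31 and 94.8% ± 0.454 (SD, n = 3, adjusted p = 0.246), and STAG3, a meiotic cohesin subunit, 92.2% ± 3.66 and 90.6% ± 3.11 (SD, n = 3, adjusted p = 0.665). RPS6KL1, a kinase-like gene, read 93.3% ± 4.01 and 98.1% ± 0.879 (SD, n = 3) and was the member left out of the test for a 6-library mean over 95%.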

How the data were processed

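The deposited table gave, for each splicing event and library, a percent (the authors' unit, here the percent of an intron retained) and a quality text with a coverage score, read numbers at both exon-intron junctions and the exon-exon junction, intron body reads and a balance test. Per the submitters' processing notes the build was GRCh38, and per the labels the libraries were stranded mRNA libraries. Which aligner and quantifier were used is not stated in those sources. Other deposited values were that quality text, lengths and coordinates. Event reads per library came to 77648922 to 103250467, with reads counted once per event, so these are not read totals. Between libraries of a group, the variance of retention was 1.18 to 1.40 times that of counting alone.

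Percents were recomputed from the raw junction reads, and 95.3% of those of members lay within 1 point (largest gap 38.8). The log2 odds of retention, after 0.5 was added to each read number, went into limma 3.58.1 (R 4.3.3) for all 3683 introns of any length with at least 10 reads and a score of LOW or better in each library and a 6-library mean of 5 to 95%, with robust empirical Bayes and a trend of the variance on that expected from counting. Tests were two-sided, with Benjamini-Hochberg adjustment over these introns. The host gene proxy was the mean of log2 of 1 plus scaled exon event reads. Introns were placed and their sequences read from GENCODE v29 transcripts that span them, with Python 3.11.15.

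The members, gene lists, tests and alternatives were chosen with earlier results of these data known. Introns are named by this rule: the 12 largest falls and 12 largest rises among called introns whose groups do not overlap, 1 per gene, up to 4 called introns per list or else the one with the smallest p, the genes with the most tested short introns, the 4 highest Control retentions and the introns nearest the limits. Other names are marked as picked after their values were seen. An intron that the rule names and a sequence are not reported here. The labels give no batch. Same-numbered libraries of the groups did not deviate together (correlations of 0.00937, 0.00295 and -0.0341).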

Additional observations from a re-analysis of the deposited data

How the results depend on the processing

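No alternative run reversed a called member. Counts below are members called lower and higher, 44 and 5 as reported, then short introns of any Control mean (45 and 5), then introns of any length (76 and 64). Without limma's variance trend all of these were 0, against 141 members lower and 29 higher at an unadjusted p under 0.05. With no filter on the mean percent they were 23 and 1, 25 and 1, and 43 and 44. With balanced reads at both ends they were 24 and 3, 24 and 3, and 27 and 17. Over the fits that leave out 1 library, members called lower ranged from 29 to 39 and higher from 2 to 7, short introns from 31 to 40 and from 2 to 7, and introns of any length from 49 to 70 and from 41 to 69. The lowest counts came without Control replicate 1, except that of introns of any length called higher, which came without DFMO replicate 1. Of the 49 called members 16 stayed called in every alternative that tested them, leaving out the fits without a variance trend, without the mean filter and with balanced reads. Not all of the 16 were tested under each setting: a score of OK or better tested 44 of the 49. With balanced reads 27 of the 49 were tested at all. The host proxy with a pseudocount of 0.1 called 173 genes higher and 127 lower, against 60 and 40.

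The replicate block, which treats equal replicate numbers as pairs, called 41 members lower and 4 higher and 73 and 59 introns of any length. The numbers do not pair the libraries, so this is a check only.

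The median difference of short introns, -0.91 points, ranged from -1.02 to -0.53 without each library, lowest in size without Control replicate 3, and was -0.61 with balanced reads. These alternatives were chosen after seeing the data. Over all members and libraries the median was 93.6 reads, and with at least 30 reads in every library 43 members were called lower and 7 higher.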

Other observations

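Some values stood outside the comparisons above, and the introns in them were picked after their values were seen. Of the 5 members called lower on chromosome 16, 4 lay within 300000 nt of each other near the end of its short arm, between chr16:500000-800000: those of PIGQ, of GPI anchor synthesis, JMJD8, FAM173A and HAGHL. That stretch held 27 tested members in 13 genes, of which 18 read lower and 9 higher, with a median of -3.18 points, beside 119 tested members on the whole chromosome. Over all tested members 3.75% were called lower and the median was -1.39 points. The stretch, like its introns, was picked after the values were seen, and its share of calls was not tested. The HAGHL intron read 66.4%, 54.6% and 45.5% in Control and 40.1%, 41.2% and 36.3% in DFMO, and the JMJD8 intron 19.8%, 18.6% and 32.6% against 13.1%, 12.5% and 13.2%. Calls of PIGQ, FAM173A and HAGHL ended without Control replicate 1, and that of HAGHL also without DFMO replicate 3. The JMJD8 call ended without Control replicate 3 or DFMO replicate 2. With no filter on the mean percent the calls of FAM173A, HAGHL and JMJD8 were lost. Other losses of FAM173A are given above. The 4 CHTF18 introns in the same stretch read higher without a call.

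Introns of the minor spliceosome start with a conserved run of bases. A search of the first 8 bases of the 779 introns with sequence, on the transcript strand, for GTATCCTT or ATATCCTT found 5: in TEPSIN, EDC4, TRAIP, TAF1C and TCEA2. None of these 5 was called by limma. The search needed all 8 bases, so it left out the USP21 intron, which starts with ATATCCTA and was called lower. Of the 6 tested members that run from AT to AC, 1 was called lower by limma. For the 5 introns found by the search, Control and DFMO retention was 30.4% ± 3.17 and 33.1% ± 11.9 in TEPSIN, and 12.4% ± 0.924 and 9.12% ± 3.99 in EDC4 (SD, n = 3). It was 26.9% ± 4.56 and 19.9% ± 5.79 in TRAIP, 12.3% ± 2.90 and 11.97% ± 2.92 in TAF1C, and 5.75% ± 3.81 and 5.94% ± 2.17 in TCEA2 (SD, n = 3). A match is a description of the letters and not evidence of the machinery used.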
